A study of Glycine max with 13 samples.

Results

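The 1106 binding events that maize auxin response factor ARF18 gave on soybean DNA are described here against the 16964 events of maize ARF16. All events of the deposited ARF18 list were taken, 1106 of the 177320 events in the 12 deposited ARF lists of the study. They were set against the whole ARF16 list and against its 1106 strongest events, so that lists of equal length could be compared. The assay was DAP-seq (DNA affinity purification and sequencing): a transcription factor with a tag is produced in vitro and mixed with bare pieces of genomic DNA, and the pieces it retains are read by sequencing. Both libraries used genomic DNA from Glycine max (soybean) leaf. One was labelled with maize ARF18 and the other with maize ARF16, and each protein had 1 library. With no replicate there is no spread to test against, so every difference between the lists is a description. The intervals given are Wilson 95% intervals, which cover counting error only. The study's library of the GST-HALO tag without an ARF was not analysed here, and the depth of the libraries is unknown.

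ARFs carry the signal of the plant hormone auxin to its target genes by binding their DNA. Their B3 domain recognises short auxin response elements that contain TGTC, and they can bind as dimers to paired elements. ARF18 and ARF16 both belong to clade A, whose members are generally described as activators that Aux/IAA repressor proteins hold back until auxin has these degraded. Clade B members are generally described as repressors. The clades are background knowledge of the published maize family and are not in the sample labels. Because DAP-seq uses naked DNA of another species, an event shows that the protein can bind a sequence, not that it does so in a cell.

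Nearly every ARF18 event lay where ARF16 also had one. An event is the single base at which the authors' event caller placed binding, and events of both lists were called shared when they lay within 100 bp. Of the 1106 ARF18 events, 1084 were shared with ARF16, which is 98.0% (97.0% to 98.7%). Events of the 10 other ARF lists set the background for this count, and 31.8% of those 159250 events lay within 100 bp of an ARF16 event. A high share was not particular to ARF16. At the same 1106 ARF18 events, ARF34 had an event for 96.0% (94.7% to 97.0%), ARF27 for 90.3%, ARF4 for 87.4% and ARF29 for 70.2%. The clade B lists ran from 35.1% (ARF39) to 53.7% (ARF25). In the other direction, 1232 of the 16964 ARF16 events had an ARF18 event, which is 7.26% (6.88% to 7.66%), against 4.37% of the events of the 10 other lists. These backgrounds pool clade A and clade B lists of unequal length, and shares for single lists of equal length are given below. Whole single lists were not compared in the second direction, so the 7.26% is not shown to exceed that of each list. ARF29, with 5395 events, had one at 776 of the ARF18 events, and ARF34, with 35715, at 1062. The counts of shared events differ between the directions since an event can have several partners: 166 ARF18 events had 2 ARF16 events within 100 bp and 4 had 3.

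With lists of equal length, the sharing was less complete. Of the 1106 ARF18 events, 627 lay at one of the 1106 strongest ARF16 events, which is 56.7% (53.8% to 59.6%), against 4.06% of the events of the 10 other lists. Of those strongest ARF16 events, 624 had an ARF18 event, which is 56.4% (53.5% to 59.3%). So 457 ARF18 events were shared only with weaker ARF16 events. The limit of the strongest ARF16 events fell inside a tie: ranks 1106 and 1107 both had a strength of 124, and 6 of the 9 events with that value were inside. Strength, as the authors deposited it, has no stated scale, so it is used here for order within a list and not for size between lists. The ARF18 list ran from 20.2 to 786 with a median of 34, and the ARF16 list from 18 to 2880 with a median of 38.

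The same number of events from other ARFs gives the comparison its scale. Among the 1106 strongest events of each other clade A list, the share with any ARF16 event was 98.1% for ARF34 (97.1% to 98.8%), 90.6% for ARF4, 89.1% for ARF27 and 86.5% for ARF29. ARF18 at 98.0% and ARF34 at 98.1% therefore had overlapping intervals, and both lay above the intervals of ARF4, ARF27 and ARF29. For the clade B lists the share ran from 36.8% (ARF7) to 48.9% (ARF10). At the 1106 strongest ARF16 events themselves lay the 56.7% of the ARF18 events given above, against 65.3% (62.4% to 68.0%) of the strongest ARF34 events and 48.2% (45.3% to 51.1%) of the strongest ARF27 events. The lists of ARF4 and ARF29 had 33.8% and 33.7% there. An ARF18 event was present at 56.4% (53.5% to 59.3%) of the 1106 strongest ARF16 events. It was present at 49.0% (46.1% to 51.9%) of the strongest ARF27 events, 48.5% for ARF34, 42.4% for ARF29 and 36.4% for ARF4. For the clade B lists this share ran from 11.6% (ARF7) to 23.3% (ARF39).

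The presence of an ARF18 event followed the rank of the ARF16 event. ARF18 had an event at 7 of the 10 strongest ARF16 events, at 37 of the 40 in ranks 11 to 50, and at 48 of the 50 in ranks 51 to 100. The share was 84.7% (78.0% to 89.6%) in ranks 101 to 250, 64.4% (58.3% to 70.1%) in ranks 251 to 500 and 40.3% (36.4% to 44.2%) in ranks 501 to 1106. It was 22.1% in ranks 1107 to 2212, 8.50% in ranks 2213 to 4424, 2.83% in ranks 4425 to 8848 and 0.628% in the 8116 weakest events. From rank 51 on, each step down in ARF16 rank had a lower share than the one before, while the first 10 events had a lower share than ranks 11 to 50 and 51 to 100, with intervals that overlap (39.7% to 89.2% for the first 10).

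**Figure D1:**
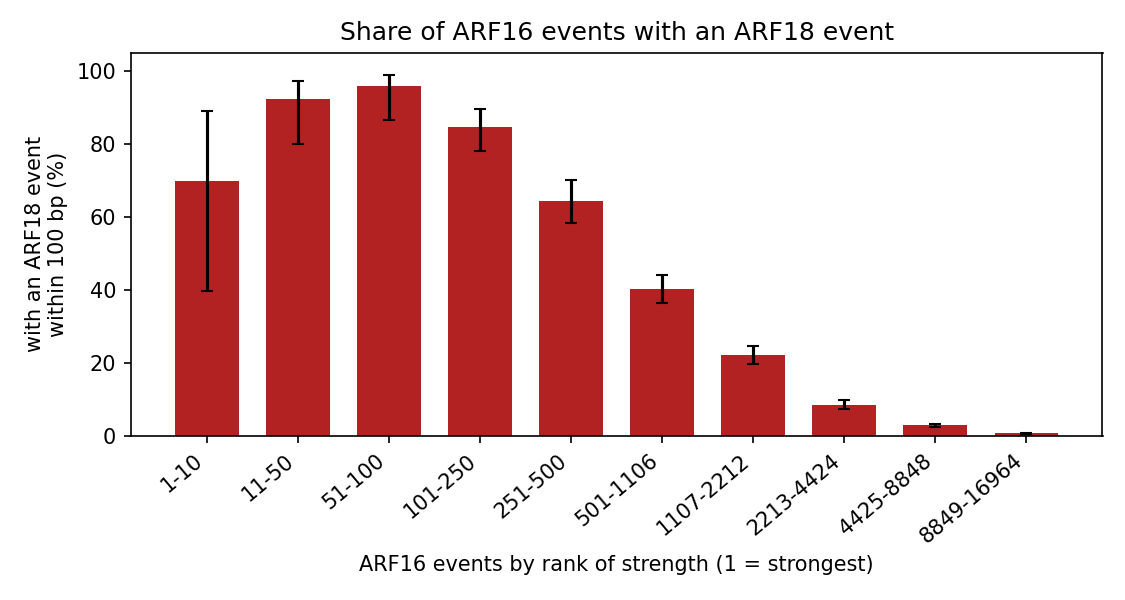
Share of ARF16 events with an ARF18 event within 100 bp (y axis, percent) in 10 classes of ARF16 strength rank (x axis, strongest at the left); bars are shares and whiskers Wilson 95% intervals. The share is above 80% in ranks 11 to 250 and 0.628% in the last class.

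Ranks within the shared events agreed moderately. Each of the 1084 shared ARF18 events was paired with its nearest ARF16 event, which gave 1075 different ARF16 events. Spearman's rho between the strengths was 0.50 across these events, a description only, since events of a list share 1 library and its depth. It was 0.33 within the 212 shared events of the top quintile of ARF18 strengths and 0.39 within the other 872. With −log10 q in place of strength the values of these parts were 0.40 and 0.36, so their order depends on the measure. The ARF16 partners of the top quintile of ARF18 events had a median rank of 197, and the medians of the following quintiles were 519, 864.5, 1243 and 2038. Of the events in the top quintile, 80.5% (74.8% to 85.2%) lay at one of the 1106 strongest ARF16 events, and of those in the bottom quintile 23.0% (17.9% to 28.9%). Over all shared events the partner's median rank was 914.5, the upper quartile 2166, and the last ranked 15872. The ARF18 list thus reached far down the ARF16 list, although it held few of the weak ARF16 events.

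**Figure D2:**
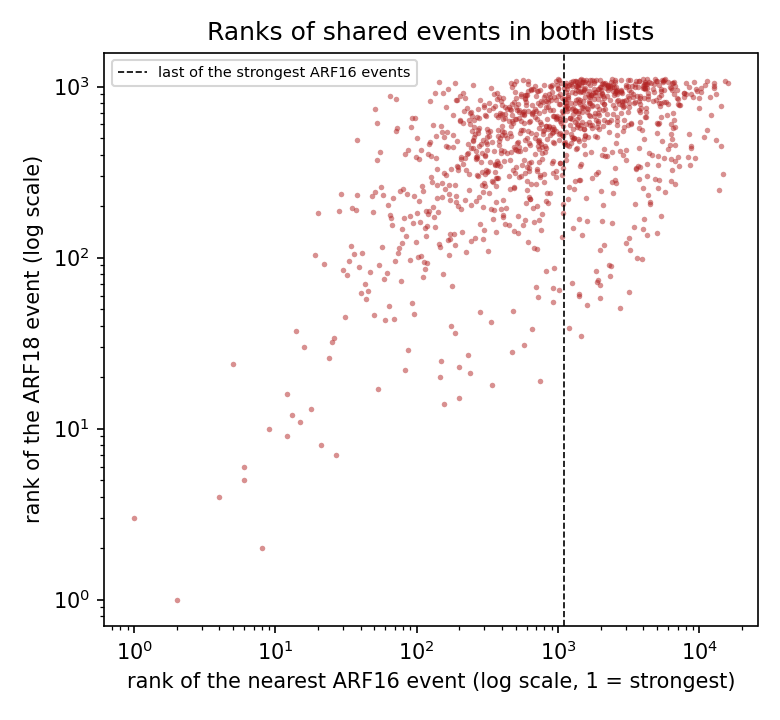
Rank of each of the 1084 shared ARF18 events (y axis, log scale) against the rank of its nearest ARF16 event (x axis, log scale, 1 is the strongest). The 10 points of the highest ARF18 ranks all lie at ARF16 ranks of 27 or better, and the cloud widens toward weaker events, where many points lie right of the dashed line at rank 1106.

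The 10 strongest ARF18 events lay at ARF16 events of rank 27 or better, 0 to 14 bp away. The first, at 36748734 of chromosome 5, had a strength of 786 and stood 2 bp from the second ARF16 event, of strength 2560. All 10 other ARFs had an event there. The next was at 34741676 of chromosome 12, with an ARF18 strength of 760.2 and an ARF16 strength of 1823 at rank 8. The third, at 16083992 of chromosome 11, had 707.8 and lay 2 bp from the first ARF16 event of all, which had 2880. At 36539560 of chromosome 13 the ARF18 strength was 553 and the ARF16 strength 2221 at rank 4, and there ARF34 had no event within 100 bp although ARF4, ARF27 and ARF29 did. A pair 10 bp apart on chromosome 7, at 24234645 and 24234655, had ARF18 strengths of 421.9 and 398.1. Both members of that pair were nearest to 1 ARF16 event of strength 2039 at rank 6, so ARF18 had a pair where ARF16 had a single event. The other 4 were at 39723281 of chromosome 9 (355.8), 30944507 of chromosome 14 (313), 24156344 of chromosome 8 (311.8) and 19636779 of chromosome 15 (303.3), with ARF16 ranks of 27, 21, 12 and 9 in the same order. Of these, the event on chromosome 9 was the one with a single other clade A list, ARF27, and all 6 clade B lists.

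Positions differed by few bases. The median distance between shared events was 4 bp, and 392 of the 1084 (36.2%) had the same base in both lists. A distance of at most 5 bp was found for 53.1% and of at most 20 bp for 78.9%. The largest distance of a shared event was 80 bp and the smallest of an ARF18 event without ARF16 was 129 bp, so no ARF18 event lay near the limit of 100 bp. ARF18 events lay at a lower coordinate than their ARF16 partner in 355 cases and at a higher one in 337. The median distance was 3 bp in the top quintile of ARF18 strengths and 6 bp in the bottom one. Beyond 40 bp there were 74 shared events, of which 49 were 55 to 75 bp from their partner. For the 170 ARF18 events with several ARF16 events within 100 bp, the nearest of these was also the strongest in 100 cases, 58.8% (51.3% to 65.9%).

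Several events ranked very differently in the lists. The ARF18 list holds 1106 events and the ARF16 list 16964, so their ranks are not on a common scale. Toward ARF18, the event at 17972667 of chromosome 3 had an ARF18 strength of 50 at rank 248, while the ARF16 event on the same base had 24.2 at rank 13834. The event at 19429874 of chromosome 3 had 103.4 in ARF18 at rank 63, and its partner 4 bp away had 71.7 in ARF16 at rank 3160. Toward ARF16, the event at 7896023 of chromosome 14 had 21 in ARF18 at rank 1059, and its partner had 259 in ARF16 at rank 144. The event at 34527523 of chromosome 18 had 25.8 in ARF18 at rank 886 and 331 in ARF16 at rank 65, with events of all 10 other ARFs within 100 bp. These 4 were chosen after their values were seen, from among the largest differences in rank within the 1084 shared events. Ranked only within those, the first 2 had ARF18 ranks of 239 and 59 and ARF16 ranks of 1079 and 897. The last 2 had ARF18 ranks of 1037 and 867 and ARF16 ranks of 135 and 61.5.

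Of the 1106 strongest ARF16 events, 482 had no ARF18 event. Most were among the weaker of them: 8 ranked in the first 100, 112 in ranks 101 to 500 and 362 in ranks 501 to 1106. ARF34 had an event at 480 of the 482, so these positions were not events of ARF16 alone. It also had an event at 99.2% of the 624 strongest ARF16 events with ARF18. At the 15250 weaker ARF16 events without ARF18 its share was 91.9%, so a high ARF34 share was general in the ARF16 list. The strongest of the 482 lay at 28347819 of chromosome 15, with an ARF16 strength of 2398 at rank 3 and −log10 q at the cap of 999. Of the other lists, ARF29, ARF34 and ARF25 had an event there, and the nearest ARF18 event was 681228 bp away. The next, at 40628947 of chromosome 12, had 1956 at rank 7 and events of all 10 other ARFs. On chromosome 20 a pair 13 bp apart, at 32738788 and 32738801, had 1069 and 615.1, and 8 of the other lists had events there. The event at 54601456 of chromosome 1 had 504, with events of ARF34 and ARF39 only. Those at 2246190 of chromosome 9, 24034503 of chromosome 12, 52557415 of chromosome 15, 29102302 of chromosome 4 and 29019867 of chromosome 10 had 371, 335.3, 319.2, 285.8 and 269. The last of these had ARF34 as its only other list, and the nearest ARF18 event was 638 bp away. For the other 9 the nearest ARF18 event was at least 55810 bp away.

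The deposited −log10 p divided by the strength had a median of 0.28 over the 92 events of ARF16 ranks 1 to 100 with ARF18 and of 0.12 over the 8 without. Among these 8, the events of ranks 3, 46 and 72 had ratios of 0.417, 0.285 and 0.265, the first with its p at the cap, and the other 5 had 0.077 to 0.122. In ranks 101 to 500 the medians were 0.28 with and 0.27 without, and in ranks 501 to 1106 they were 0.30 and 0.27. A low ratio means a weak p-value for the strength the authors gave. Its part in the absence of ARF18 events was not tested.

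Among the strongest ARF16 events, those with ARF18 had events of more of the other ARFs. The 624 with an ARF18 event had a median of 6 of the 10 other lists, against 4 for the 482 without. All of ARF4, ARF27, ARF29 and ARF34 had an event at 70.5% of the set with ARF18 and at 34.6% of the set without. ARF29 showed the widest gap in clade A, with 73.4% (69.8% to 76.7%) at events with ARF18 and 39.2% (34.9% to 43.6%) at events without. ARF4 had 90.5% and 74.3%, ARF27 had 94.4% and 80.3%, and ARF34 had 99.2% and 99.6%. In clade B, ARF25 had an event at 57.9% with ARF18 and 35.1% without, ARF14 at 41.7% and 17.4%, and ARF39 at 36.7% and 10.6%. Events of all 6 clade B lists were lacking at 32.9% (29.3% to 36.6%) of the events with ARF18 and at 53.9% (49.5% to 58.3%) of those without.

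**Figure D3:**
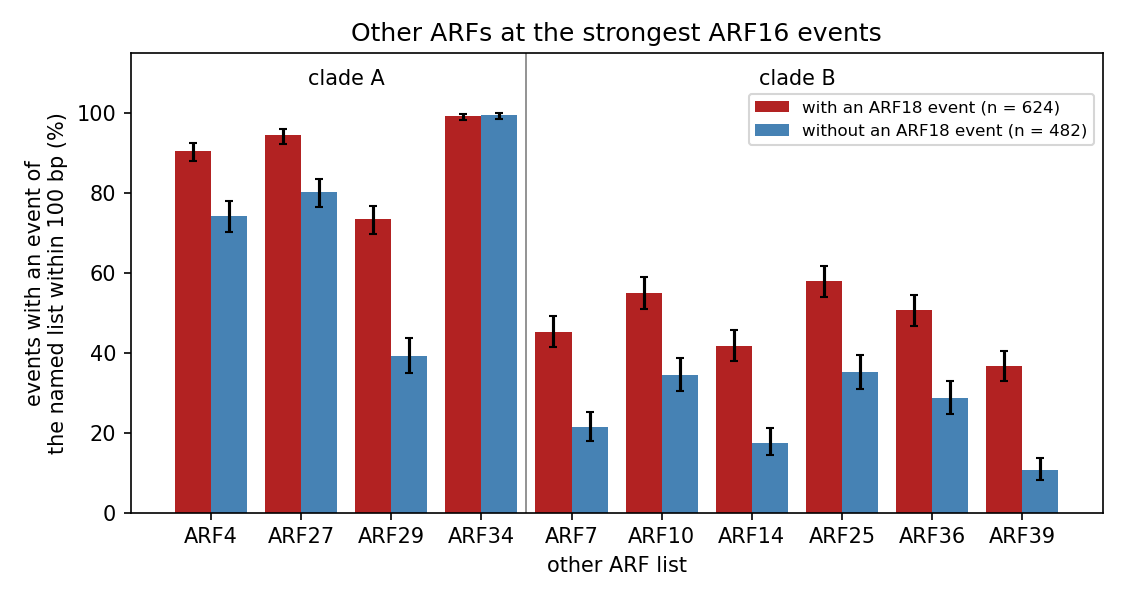
Share of the 1106 strongest ARF16 events at which each of the 10 other ARFs had an event within 100 bp (y axis, percent), for events with an ARF18 event (left bar of each pair) and without (right bar); whiskers are Wilson 95% intervals. The left bar is higher for 9 lists, and for ARF34 the bars are 99.2% and 99.6%.

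These sets differ in ARF16 strength, with medians of 187.9 for events with ARF18 and 145.9 for events without, so the shares were also taken within rank classes. In ranks 501 to 1106, where the median strengths were 145 and 139.8, ARF29 had an event at 68.0% (61.9% to 73.6%) of the 244 events with ARF18 and at 38.1% (33.3% to 43.2%) of the 362 without. In the same class ARF39 had 34.4% (28.7% to 40.6%) and 10.5% (7.74% to 14.1%), and ARF10 had 46.3% (40.2% to 52.6%) and 35.1% (30.3% to 40.1%). In ranks 101 to 500 the median strengths still differed, at 212.3 and 190. There ARF39 had an event at 33% of the 288 events with ARF18 and at 8.04% of the 112 without. ARF7, with a list of 20802 events, had 44.4% (38.8% to 50.2%) with ARF18 and 17% (11.1% to 25%) without in ranks 101 to 500, and ARF14 had 39.2% and 14.3%. In ranks 1 to 100, ARF25 had an event at 73.9% of the 92 events with ARF18 and at 75% (40.9% to 92.9%) of the 8 without. ARF34 had 96.7% and 100% there, and the other lists had higher shares with ARF18. Events of all 6 clade B lists were lacking at 18.5% of these 92 and at 0% (0% to 32.4%) of the 8. The ARF29 and ARF39 lists hold 5395 and 4210 events. How far list length and depth set these shares was not tested.

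The 22 ARF18 events without ARF16 were stronger than the shared ones by median strength and weaker by median −log10 q. By quintiles of ARF18 strength, from the strongest, there were 9, 6, 1, 3 and 3 of them, and their median strength was 48 against 34 for the shared events. Their median −log10 q was 6.89, against 7.36 for the shared events. Their −log10 p per unit of strength had a median of 0.20, against 0.30 for the shared events, and the part of this in their lack of an ARF16 event was not tested. The strongest, at 23466774 of chromosome 13, had an ARF18 strength of 149.6, a −log10 q of 8.3 and an ARF16 event no nearer than 5021 bp. It carried events of ARF29 and of the clade B proteins ARF7, ARF14, ARF25 and ARF39. The next, at 23544211 of chromosome 6, had 124.9, a −log10 q of 5.73 and no event of any other list. The others with a strength over 100 were at 39247207 of chromosome 2 (111, with 5 of the other lists) and at 32682489 of chromosome 4 (105.7, with all 10 other lists). Another on that chromosome, at 32680673, had 95 and events of ARF29, ARF7, ARF25 and ARF39. All 10 other ARFs thus had an event at 1 position where ARF16 had none.

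Further down, the event at 250625 of chromosome 19 had an ARF18 strength of 82.2 and 7 of the other lists, and that at 13612803 of chromosome 11 had 65.4 and 8 of them. The events at 46875537 and 20009683 of chromosome 8 had 73 and 56. Those at 5350973 of chromosome 19 and 22264452 of chromosome 5 had 49 and 47, and both carried ARF27, ARF29, ARF7, ARF14, ARF25 and ARF39. The second of these lay 4614 bp from an ARF16 event of strength 598 at rank 19. An event at 19404947 of chromosome 18 had 44, with all 4 other clade A lists and no clade B list. Those at 15025980 of chromosome 11 and 15385624 of chromosome 17 had 42 each, and the one on chromosome 17 carried ARF14, ARF25 and ARF39 only. The last were 28112131 of chromosome 18, with 33 and no other list, and 34989987 of chromosome 1, with 22 and 5 of the other lists. Of the 22, 27.3% (13.2% to 48.2%) had no event of any clade B list, against 37.5% (34.7% to 40.5%) of the shared ARF18 events.

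The distances of these 22 to ARF16 fell into separate ranges. For 6 of them an ARF16 event lay 129 to 258 bp away, and for the other 16 it lay 4614 to 91374 bp away, with a median of 20698 bp. The 6 were at 18588408 of chromosome 16 (129 bp), 29677875 of chromosome 8 and 30185295 of chromosome 17 (130 bp each), 32956623 of chromosome 18 (198 bp), 50202572 of chromosome 1 (238 bp) and 40041233 of chromosome 1 (258 bp). Their ARF18 strengths were 23.5, 25.2, 28.9, 31, 49.1 and 30.7 in the same order. At the 16 farther ones, ARF29 and ARF14 had an event at 11 each, ARF27, ARF25 and ARF39 at 10 each, ARF7 at 9, ARF4 at 6, ARF34 and ARF36 at 4 each and ARF10 at 2. ARF34 was thus at 4 of these 16, or 25% (10.2% to 49.5%), against 97.5% (96.4% to 98.3%) of the shared ARF18 events. The shared events lie at ARF16 events by definition, and a high ARF34 share was general there. It was 91.9% at the 15250 weaker ARF16 events without ARF18. The contrast therefore restates the overlap of ARF34 with ARF16 and describes no trait of ARF18. The clade B lists differed in direction. ARF39 was at 62.5% (38.6% to 81.5%) of the 16, against 34.9% (32.1% to 37.8%) of the shared ARF18 events, and ARF14 was at 68.8% (44.4% to 85.8%), against 38.9% (36.1% to 41.9%). ARF10 was at 12.5% (3.5% to 36.0%) of the 16, against 47.3% (44.4% to 50.3%) of the shared ARF18 events, and ARF36 was at 25% (10.2% to 49.5%), against 45.3% (42.4% to 48.3%). The 16 had a median ARF18 strength of 60.7 and the shared events one of 34. These shares were not compared at like strength, and the part of strength in them was not tested. Of the 22, 4 had no event of any of the 10 other lists, against 0 of the 1084 shared ARF18 events. Of the same 22, 17 lay between 25% and 75% of the length of the chromosome that events cover, which is 77.3% (56.6% to 89.9%), against 41.9% (39.0% to 44.8%) of all ARF18 events.

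Neighbours within a list were about as common in ARF18 as in the strongest ARF16 events. Another event of the same list lay within 500 bp for 88 of the 1106 ARF18 events, 7.96% (6.5% to 9.7%), and for 96 of the 1106 strongest ARF16 events, 8.68% (7.16% to 10.5%). In the whole ARF16 list the share was 20.4% (19.8% to 21%). In the ARF34 list, with 35715 events, it was 17.3%, and in the ARF36 list, with 22516 events, it was 8.97%. The part of list length in these shares was not tested. Chaining neighbours gave 1061 ARF18 groups, of which 41 held 2 events and 2 held 3. The longest chain of the whole ARF16 list held 8. In 32 of the 43 ARF18 groups with several events, these were nearest to 2 or more different ARF16 events, so ARF16 was split there too.

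Of the 2 ARF18 groups with 3 events, the one with the higher summed strength, 506, spanned 35540010 to 35540256 of chromosome 17, with strengths of 252.6, 167.6 and 85.8. ARF16 had 3 events there as well, 0, 4 and 6 bp from those of ARF18. The other group of 3 spanned 32252053 to 32252435 of chromosome 1, with strengths of 27.9, 36.5 and 24 and distances to ARF16 of 26, 0 and 63 bp. Among groups of 2, those with the highest summed strengths, 875, 820 and 584.6, were that of 760.2 and 114.8 at 34741676 and 34741878 of chromosome 12, the pair on chromosome 7 given above, and 355.8 and 228.8 at 39723281 and 39723531 of chromosome 9.

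Closely grouped ARF16 events had an ARF18 event more often than single ones of like strength. Where the strongest ARF16 event of a group was above 80 and up to 124, an ARF18 event was present at 34 of the 68 groups of 3 or more (38.4% to 61.6%), at 24.4% (18.9% to 30.8%) of the 197 groups of 2 and at 15.5% (13.5% to 17.7%) of the 1136 single events. Above 124 and up to 200 the shares were 70.3% (54.2% to 82.5%), 51.6% (42.9% to 60.2%) and 42.3% (38.4% to 46.3%) in the same order. There the intervals of groups of 2 and single events overlap. Above 50 and up to 80 the shares were 9.28%, 8.05% and 3.89%. In the outer classes the order was the same but the intervals overlap. Above 200, 93.5% (85.7% to 97.2%) of groups of 2 and 83.9% (78.6% to 88.2%) of single events had ARF18. Up to 50 these were 1.24% (0.569% to 2.68%) and 0.489% (0.366% to 0.654%). Groups of several events offer more positions at which an ARF18 event can be counted, and the part of this was not tested.

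Spacings within the ARF16 list clustered near multiples of 65 bp, a pattern noticed in these data. Among 1917 gaps of 33 to 487 bp between consecutive ARF16 events, 1059 lay within 6 bp of a multiple of 65, which is 55.2% (53.0% to 57.5%), where these windows cover 20% of the range. There were 154 gaps near 65 bp, 283 near 130, 212 near 195, 169 near 260 and 110 near 325, against 70, 40, 19, 14 and 15 in windows of the same width centred 32 bp further on. The ARF18 list had 41 such gaps, of which 15 lay in the windows, 36.6% (23.6% to 51.9%), and the strongest ARF16 events had 18 of 44, 40.9% (27.7% to 55.6%). At this number of gaps the ARF18 share cannot be told from that of the strongest ARF16 events. An ARF18 event was present at either end of 14.3% (12.3% to 16.5%) of the ARF16 pairs in the windows and of 22.5% (19.8% to 25.4%) of the others. The stronger event of a pair had a median strength of 49.6 in the windows and 65.2 elsewhere. With only pairs whose stronger event exceeded 80, the shares were 49.2% (43.0% to 55.4%) and 49.0% (43.6% to 54.3%).

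**Figure D4:**
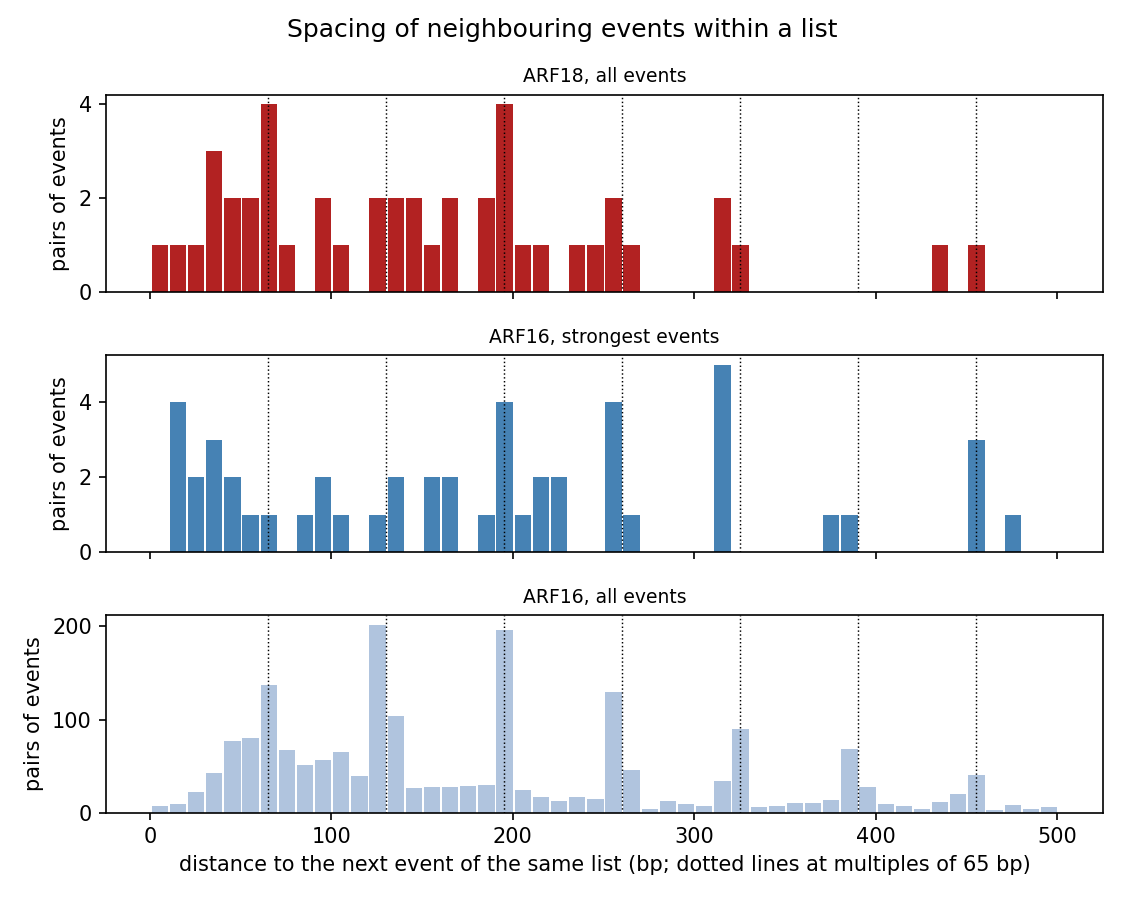
Number of pairs of consecutive events (y axis) by their distance in bp (x axis, classes of 10 bp) for all ARF18 events (top), the 1106 strongest ARF16 events (middle) and all ARF16 events (bottom); dotted lines mark multiples of 65 bp. The whole ARF16 list peaks at the dotted lines, and the upper panels hold 45 and 50 pairs up to 500 bp.

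ARF18 events were spread over all 20 chromosomes. The counts ran from 39 on chromosomes 12 and 16 to 76 on chromosome 19. Across the 20 chromosomes the number of ARF18 events had a Pearson r of 0.69 and a Spearman rho of 0.66 with the number of ARF16 events. With the number of strongest ARF16 events these were 0.56 and 0.48. They are given as descriptions, since chromosome length enters every count. There were 6.52 ARF18 events per 100 ARF16 events in all, with the highest ratio, 8.90, on chromosome 5 (67 and 753 events) and the lowest, 4.85, on chromosome 6 (44 and 908). An ARF18 event was present at 9.69% (7.78% to 12.0%) of the ARF16 events of chromosome 5, at 8.95% (7.29% to 10.9%) of those of chromosome 19 and at 5.29% (4.01% to 6.94%) of those of chromosome 6. These 3 intervals leave out the 7.26% of the whole list, and the other 17 include it. Among 20 such intervals some can leave it out by counting error alone, and that of chromosome 19 does so narrowly. Neighbouring ARF16 events that share an ARF18 event are not independent, which the intervals do not allow for.

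**Figure D5:**
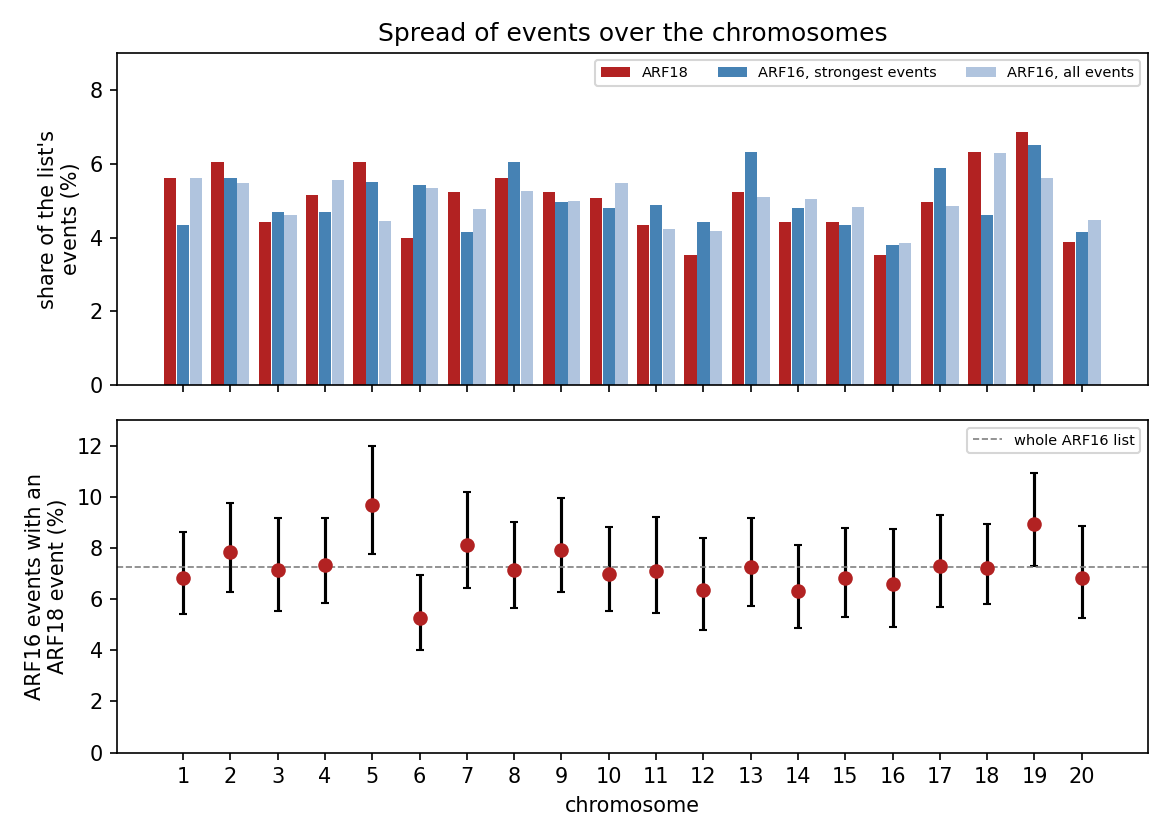
Top: share of each list's events on each of the 20 chromosomes (y axis, percent), for ARF18 (left bar), the strongest ARF16 events (middle bar) and all ARF16 events (right bar). Bottom: share of ARF16 events with an ARF18 event (percent) with Wilson 95% intervals. The intervals of chromosomes 5 and 19 lie above the dashed 7.26% of the whole list and that of chromosome 6 below it.

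In the middle of the chromosomes, the share of ARF18 lay closer to that of the strongest ARF16 events than to that of the whole ARF16 list. This middle, from 25% to 75% of the distance from the first to the last event of any list, held 41.9% (39.0% to 44.8%) of the ARF18 events, 41.2% (38.4% to 44.2%) of the strongest ARF16 events and 46.6% (45.9% to 47.4%) of all ARF16 events. Within the strongest ARF16 events, 38% (34.3% to 41.9%) of those with ARF18 lay in this middle part and 45.4% (41.0% to 49.9%) of those without, with intervals that overlap. The outermost 10% at both ends of that distance together held 24.4% of the ARF18 events, 26.6% of the strongest ARF16 events and 23.7% of all ARF16 events.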

How the data were processed

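The submitters' processing notes name Trimmomatic 0.36, a read trimmer, and Bowtie2, an aligner. The deposited lists carry the name of GEM, an event caller. The build of the genome, the settings of the caller and its use of the control: not given in the sources used here. No genes or sequences are therefore printed at the events. The authors deposited 1 list per ARF with windows of 201 bp, a signal value (called strength here, scaling not stated) and −log10 p and −log10 q values capped at 999, of which the lowest −log10 q was 5. Read totals are unknown. The event position was the window start plus the deposited offset of 100, written 1-based. Strongest ARF16 events were ranked by strength, with ties ordered by −log10 q and then position. Partners were the nearest events. The middle of a chromosome is measured on the span between the first and last event of any list. No test was run, because each ARF has 1 library. Named events were all ARF18 events without ARF16 (up to 10 with values beyond 25 in all), the 10 strongest ARF18 events, the 10 strongest ARF16 events without ARF18, the 5 ARF18 groups with the most events and the chromosomes with the highest and lowest ratio. The sets and measures were chosen with earlier results of these data known. Values were computed with scipy 1.17.1, pandas 2.3.3 and numpy 2.4.6 in Python 3.11.15 and drawn with matplotlib 3.10.9. The matching code was tested on simulated data.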

Additional observations from a re-analysis of the deposited data

How the results depend on the processing

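Of 55 values recomputed under alternative settings, 32 stayed within the 95% interval of the value reported (for counts, within 1.5 times) and 23 did not. With sharing within 50 bp, 93.2% of ARF18 events had an ARF16 event, 6.45% of ARF16 events had an ARF18 event, and 75 ARF18 events had no ARF16 event. With 200 bp, 7.86% of ARF16 events had an ARF18 event. With events below their own list's median −log10 q left out, 95.9% of 555 ARF18 events had an ARF16 event, rho was 0.46, 247 of the 555 strongest ARF16 events had no ARF18 event, and 18.5% of ARF16 events had a neighbour. With mutual nearest events only, 6.34% of ARF16 events, 53.3% of the strongest ARF16 events and 53.3% of ARF18 events against the strongest ARF16 events were shared. With 553 strongest ARF16 events, 73.6% had an ARF18 event, 146 had none and 38% of ARF18 events lay at one. With 2212 these were 39.2%, 1344 and 77.1%. With −log10 q in place of strength, rho was 0.43. With neighbours within 300 bp, 6.78% of the strongest and 17% of all ARF16 events had one, and within 1000 bp 23.5% of all. Between 33.3% and 66.7% of the chromosomes lay 28.7% of ARF18 and 27.5% of the strongest ARF16 events. The changes with another number of strongest events, another distance or another middle come from those limits themselves. The count of 247 is out of 555 events in place of 1106, and 55.5% of the 555 had an ARF18 event. Mutual matching keeps at most 1 partner per event, so it can only lower a share. The cause of the other changes was not tested. No paired analysis was possible because each ARF has 1 library and the result comes from no test. Unknown depth limits every statement that ARF18 lacks an event: such a position may lie under the threshold of its list.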

Other observations

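The spacing near multiples of 65 bp was also counted in the other lists, over gaps of 33 to 487 bp between consecutive events of a list. The share of gaps within 6 bp of a multiple was 65.3% (62.8% to 67.8%) of 1413 gaps for ARF4, 53.5% (49.4% to 57.5%) of 576 for ARF27, 49.0% (47.4% to 50.7%) of 3402 for ARF34 and 31.7% (25% to 39.2%) of 161 for ARF29. In the clade B lists it ran from 15.8% (13.6% to 18.1%) of 1003 for ARF36 to 22.2% (19.8% to 24.9%) of 1003 for ARF7, near the 20% of the range that the windows cover. The clade A lists other than ARF18 and ARF29 thus had shares well above 20%, ARF29 and ARF18 had smaller samples of gaps with intervals that start at 25% and 23.6%, and the intervals of 5 clade B lists include 20%, while that of ARF36 lies below it. The intervals treat gaps as independent, which gaps in 1 chain of events are not. The windows were set after the pattern was seen in the ARF16 list.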
